A study of Mus musculus with 9 samples.

Results

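The genes described here encode the cornified envelope and the other products of the last stage of keratinocyte differentiation, measured in 9 mouse oral tumors. They were taken by name from the array's annotation: the genes with a probe set of their own whose symbol starts with Lce or Sprr, together with Ivl, Flg, Rptn, Tchh, Hrnr, Tgm1, Tgm3, Casp14, Cdsn, Evpl, Ppl, Cnfn, Klk5, Klk7 and Lor. This gave 39 of the 18193 genes with a named probe set, each read on its brightest probe set. Flg2, Crnn, Sprr2a1, Sprr2a2 and Sprr2a3 had no probe set that names them alone and are not among the 39. The probe sets that several Sprr2a genes share are described apart from them. There were 3 tumors in each of 3 groups, all from mice 1 year old. In the p53R172H/- group the R172H missense allele of p53 stood opposite a null allele, in the p53R172H/+ group opposite a wild-type allele, and the p53-/- group had lost p53. By the title of the series all tumors also had activated Ras, and the design text sets tumors with the mutation beside tumors with the deletion. The labels put a K before each genotype of the mice without saying what it stands for, and do not say which cells carried the alleles or whether the tumors of a group came from separate animals. The p-values below therefore measure only the spread between these tumors, and the number of arrays limits the precision.

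In stratified epithelia, keratinocytes that leave the basal layer replace their plasma membrane with a shell of cross-linked protein, the cornified envelope. Involucrin and the plakins envoplakin and periplakin lay down its scaffold, loricrin, the small proline-rich (Sprr) proteins and the late cornified envelope (Lce) proteins fill it, and transglutaminases cross-link them. Loricrin and filaggrin are best known from keratinized skin, and Sprr proteins are made strongly in oral and in stressed epithelium. Most of these genes lie side by side in the epidermal differentiation complex, and 30 of the 39 genes were on mouse chromosome 3 in the RefSeq annotation of GRCm38.p6.

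The largest families of the set, Lce1 with 11 genes and Sprr with 9, had opposite average directions in the tumors described below, so the promoters of 3 genes of each are shown. They are those of the 3 Lce1 genes and the 3 Sprr genes with the smallest p between p53R172H/- and p53-/- tumors, chosen after those values were seen. Each sequence is the 250 bases before the start of the gene in RefSeq (GRCm38.p6), read 5′ to 3′ on the strand of the gene, and capitals mark the matches to 4 motifs given below.
Lce1b (chr3:92656927-92657176, minus strand): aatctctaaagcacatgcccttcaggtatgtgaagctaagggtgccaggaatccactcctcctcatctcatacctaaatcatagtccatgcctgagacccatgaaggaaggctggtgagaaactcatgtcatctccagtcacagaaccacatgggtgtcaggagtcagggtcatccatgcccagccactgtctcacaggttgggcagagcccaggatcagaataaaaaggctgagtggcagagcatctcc
Lce1d (chr3:92687211-92687460, minus strand): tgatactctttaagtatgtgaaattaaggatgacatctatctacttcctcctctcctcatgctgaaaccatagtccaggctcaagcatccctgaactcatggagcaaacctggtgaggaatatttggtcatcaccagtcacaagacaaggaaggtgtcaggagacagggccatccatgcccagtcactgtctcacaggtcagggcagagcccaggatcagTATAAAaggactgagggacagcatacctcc
Lce1l (chr3:92851287-92851536, minus strand): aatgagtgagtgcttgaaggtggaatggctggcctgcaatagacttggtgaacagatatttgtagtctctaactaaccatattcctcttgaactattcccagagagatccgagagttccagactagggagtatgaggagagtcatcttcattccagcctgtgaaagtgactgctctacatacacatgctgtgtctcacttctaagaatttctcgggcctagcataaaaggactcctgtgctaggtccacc
Sprr1a (chr3:92485882-92486131, minus strand): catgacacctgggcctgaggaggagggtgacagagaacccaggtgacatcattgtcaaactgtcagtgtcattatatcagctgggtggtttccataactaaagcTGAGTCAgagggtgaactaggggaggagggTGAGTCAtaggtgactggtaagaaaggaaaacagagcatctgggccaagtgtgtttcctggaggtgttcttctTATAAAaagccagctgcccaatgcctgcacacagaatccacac
Sprr2d (chr3:92338890-92339139, plus strand): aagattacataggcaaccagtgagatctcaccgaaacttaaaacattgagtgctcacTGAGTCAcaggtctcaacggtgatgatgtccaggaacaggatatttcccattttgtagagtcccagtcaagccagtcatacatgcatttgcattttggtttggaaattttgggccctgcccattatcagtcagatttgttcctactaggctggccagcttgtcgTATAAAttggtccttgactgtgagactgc
Sprr2f (chr3:92364937-92365186, plus strand): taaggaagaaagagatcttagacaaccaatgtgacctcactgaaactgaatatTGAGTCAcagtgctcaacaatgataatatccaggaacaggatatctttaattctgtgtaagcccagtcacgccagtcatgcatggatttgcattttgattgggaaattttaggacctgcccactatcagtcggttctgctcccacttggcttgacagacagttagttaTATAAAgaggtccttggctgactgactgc

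The motifs were searched on both strands in windows of 300 bases, 250 before to 50 after the gene start, and no 2 matches overlap in the printed sequences. The AP-1 site (TGANTCA), which Fos and Jun proteins bind, was found in 7 of 8 Sprr windows and in 0 of 10 Lce1 and 0 of 4 Lce3 windows, and in 7.81% of the 32851 promoters of the table. Sprr1a has matches beginning 146 and 116 bases before its start, Sprr2d 193 and Sprr2f 197 bases before. The letters TATAAA were present in 8 of 8 Sprr, 2 of 10 Lce1 and 0 of 4 Lce3 windows, against 13.6% of all promoters, and lie 43 bases before the start in Sprr1a, 29 bases before the start in Sprr2d and Sprr2f and 30 in Lce1d. The C/EBP motif (TTGCNNAA) occurred in 1 of 8 Sprr, 0 of 10 Lce1 and 1 of 4 Lce3 windows, against 10.8% of all promoters. The Grainyhead motif (AACCNGTT) occurred in 0 windows of these families and in 2.09% of all promoters. These are matches of letters, not measured binding. Windows of the Lce1 genes shared a median of 66.3% of their bases in pairwise alignment (45 pairs, 53.3% to 86.3%), those of the Sprr genes 56% (28 pairs, 52% to 82.3%). Of the 39 genes, 35 had a window in the table.

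The values are signal intensities of Affymetrix probe sets, in linear units after the authors' MAS5 step, with array medians of 109 to 123. Markers of keratinocytes (Krt5, Krt14, Epcam, Cdh1, Dsp and Jup) were bright in every tumor, with a mean log2 signal of 12.41 to 12.72 (all 6 measured). Markers of skeletal muscle ran from 6.34 to 10.83 (all 10 measured) and hair markers from 7.13 to 10.84 (11 of 12 measured). The hair markers are keratins of the cortex and cuticle and, for Krt25, Krt27, Krt28 and Krt71, of the inner root sheath. Markers of fibroblasts ran from 9.96 to 11.29 (all 7 measured). In bulk tumor RNA, fewer cells of a type and less RNA per cell cannot be told apart.

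The cornified envelope genes were among the brightest of the arrays. Of the 39, 23 had a mean signal above the 99th percentile of all non-control probe sets. Each gene was ranked on its brightest probe set, and brightness also depends on the probes. Mean signals ran from 135 for Lce1m to 16598 for Sprr1b, with 24545 as the highest value in the table. All 39 passed the minimum of 113 signal units that kept 12167 of 18193 genes. Loricrin, the main protein of the envelope in skin, had 13816, 16453 and 17293 in the p53R172H/- tumors, 16144, 16798 and 16933 in the p53R172H/+ tumors and 16992, 17151 and 17234 in the p53-/- tumors. All 3 p53R172H/+ tumors lay below all 3 p53-/- tumors, with a mean log2 fold change of -0.04 ± 0.08 (SE of the limma fit, as for all log2 fold changes below), and the p53R172H/- tumors overlapped with the p53-/- tumors. Sprr1b, a cross-bridging protein of the envelope, was the most even of all, with 17543, 15026 and 16470.5 in p53R172H/- tumors, against 16109, 15921 and 16919 in p53R172H/+ and 16601, 16578 and 18217 in p53-/- tumors, a 1.21-fold spread over the 9 tumors. Repetin (Rptn), cornifelin (Cnfn) and periplakin (Ppl) also stayed within 1.22-fold, 1.25-fold and 1.28-fold. At the other end were Tchh, Ivl, Lce1l, Lce1m and Klk5, whose log2 signals spanned 3.08, 2.99, 2.32, 2.20 and 1.99.

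**Figure D1:**
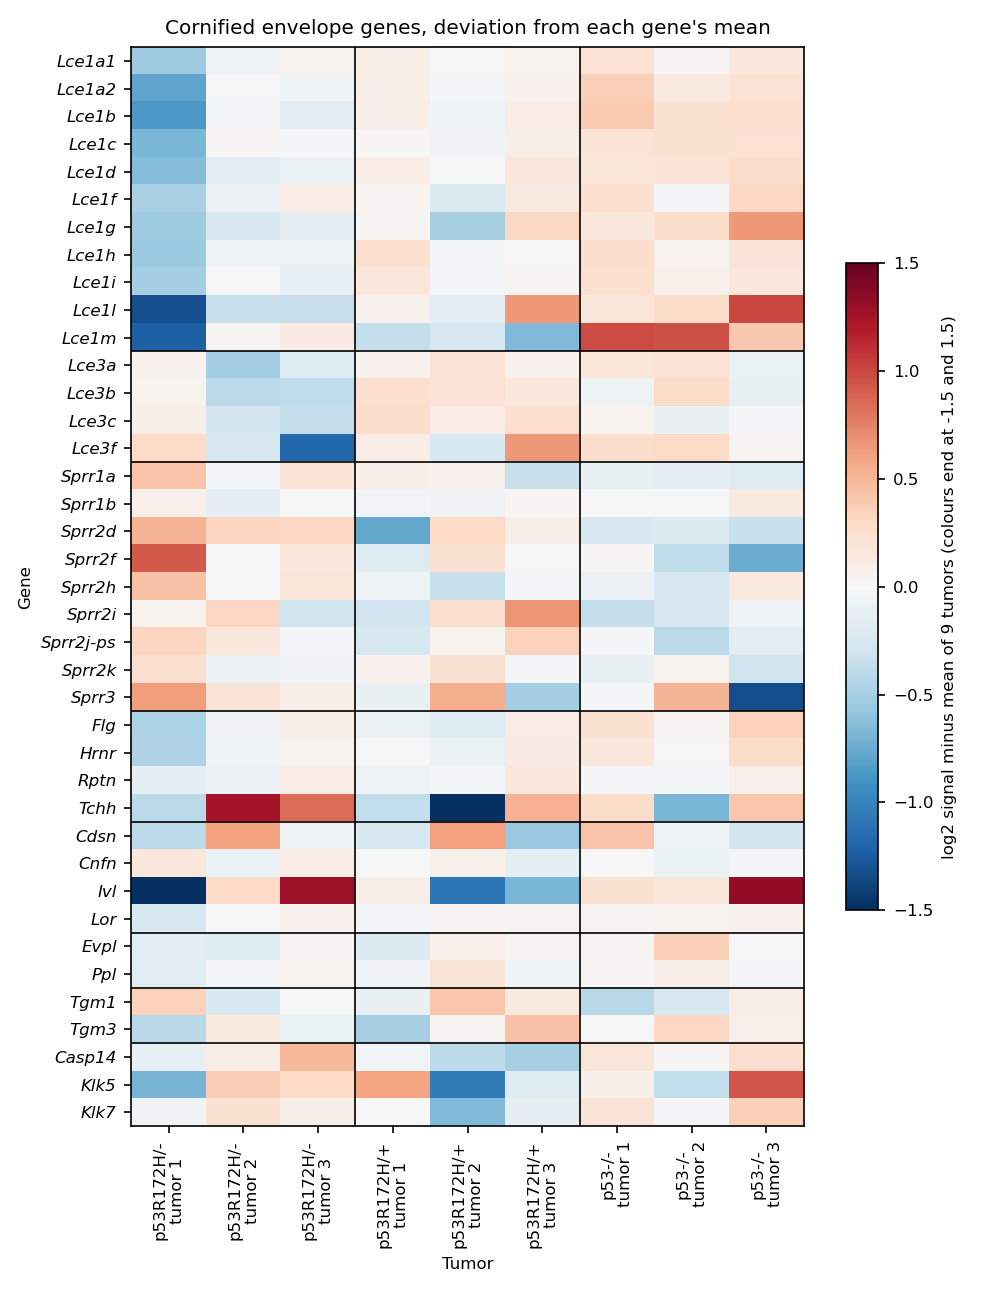
Log2 signal of each of the 39 genes (rows, grouped by family) in each of the 9 tumors (columns, by genotype) as the deviation from the gene's mean over the tumors. The 11 Lce1 genes are all lowest in p53R172H/- tumor 1 and highest in a p53-/- tumor, while 6 of 9 Sprr genes are highest in p53R172H/- tumor 1, and colours end at -1.5 and 1.5.

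Tumors with the missense allele and no wild-type allele (p53R172H/-) were first set against tumors that had lost p53 (p53-/-). The Lce1 genes were lower and the Sprr genes higher on average in the p53R172H/- tumors: 11 of 11 Lce1 genes were lower, with a median log2 fold change of -0.52, and 8 of 9 Sprr genes were higher, with a median of 0.35. None of the 39 genes, and none of the 12167 genes tested, passed an adjusted p of 0.05 (limma, 0 genes, smallest adjusted p 0.202). In all, 15 of the 39 had an unadjusted p under 0.05. Of these 3 were higher and 12 lower, where all genes tested gave 15.6%, with 6.44% on the higher and 9.16% on the lower side. The median of the 39 genes was -0.22 and that of all genes tested -0.03.

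Lce1 proteins are cross-linked into the envelope late in cornification. Lce1d had 4054, 5703 and 5951 in the p53R172H/- tumors, 6869, 6328 and 7139 in the p53R172H/+ tumors and 7207, 7311 and 7627 in the p53-/- tumors. The 3 groups did not overlap, with p53R172H/- lowest and p53-/- highest, and the log2 fold change of p53R172H/- over p53-/- was -0.52 ± 0.13 (SE, limma adjusted p = 0.214). Lce1b had 3063, 5496 and 4979 in p53R172H/- tumors, 5967, 5324 and 5979 in p53R172H/+ tumors and 7307, 6489.6 and 6623 in p53-/- tumors. All 6 tumors with the mutation lay below the 3 p53-/- tumors, and the log2 fold change of p53R172H/- over p53-/- was -0.64 ± 0.19.

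Lce1l, a dim member of the family, had 107, 208 and 208 in p53R172H/- tumors, 278, 237 and 417 in p53R172H/+ tumors and 299.9, 320.0 and 531 in p53-/- tumors. Its p53R172H/- tumors lay below all others, at -1.15 ± 0.33 against p53-/-. Lce1m, the dimmest member, had 42.5, 125 and 134 in p53R172H/- tumors, against 95.7, 103 and 77.3 in p53R172H/+ and 241, 237 and 162 in p53-/- tumors, and its first value is below the floor of 52.6 signal units to which values were raised. The p53-/- tumors were the highest 3 of the 9 and the log2 fold change of p53R172H/- over p53-/- was -1.13 ± 0.33. For Lce1g, also dim, the values were 127, 155 and 166 in p53R172H/- tumors, 185, 130.2 and 228 in p53R172H/+ tumors and 207, 220.0 and 288 in p53-/- tumors. Here the p53R172H/+ tumors overlapped with both other groups, and p53R172H/- over p53-/- was at -0.67 ± 0.21. The other 6 Lce1 genes (Lce1a1, Lce1a2, Lce1c, Lce1f, Lce1h and Lce1i) were bright and had log2 fold changes of -0.52 to -0.31. In all, 10 of 11 Lce1 genes stood at an unadjusted p under 0.05, all but Lce1f, and for 9 of 11 the p53R172H/- and p53-/- tumors did not overlap, where 13.8% of all genes tested were lower without overlap. Lce1 genes are near copies of each other, and 4 of the 11 probe sets used carry an _x_at or _s_at suffix, by which Affymetrix marks probes that can bind related transcripts. Which of the Lce1 genes gave the signal is therefore uncertain, and the 11 values are not independent.

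**Figure D2:**
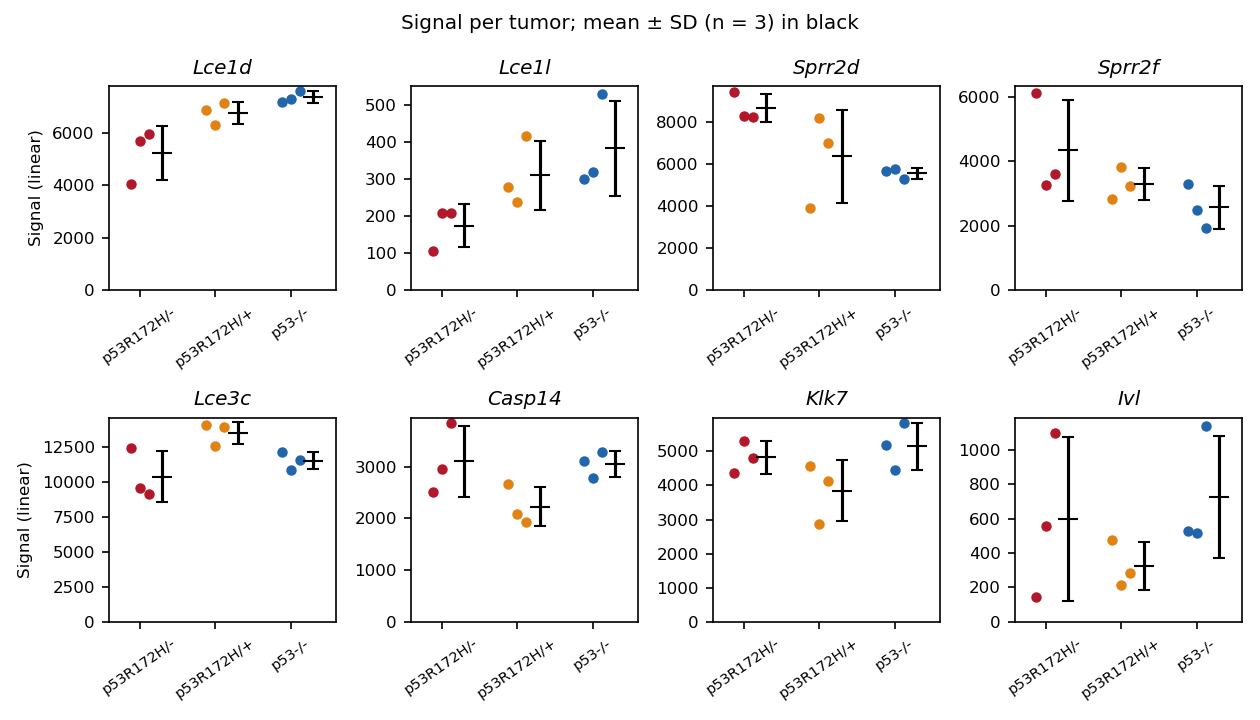
Signal (linear units, axis from 0) of 8 genes in each tumor, as coloured points, with the mean ± SD of the 3 tumors of each group in black. Lce1d and Lce1l are lowest in the p53R172H/- tumors, Sprr2d is highest there, Lce3c is highest in the p53R172H/+ tumors, where Casp14 and Klk7 are lowest on average, and Ivl varies most within groups.

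Sprr proteins bridge the other envelope proteins. Sprr2d had 9446, 8312 and 8239 in p53R172H/- tumors, 3912, 8181 and 7023 in p53R172H/+ tumors and 5654, 5746 and 5272 in p53-/- tumors. All 3 p53R172H/- tumors lay above the other 6, and the log2 fold change over p53-/- was 0.64 ± 0.22 (SE, limma adjusted p = 0.265). Sprr2f had 6119, 3262 and 3609 in p53R172H/- tumors, against 2839, 3807 and 3223 in p53R172H/+ and 3278, 2487 and 1941 in p53-/- tumors. Its groups overlapped, since p53R172H/- tumor 2 lay just below p53-/- tumor 1, and the log2 fold change was 0.73 ± 0.25. Sprr1a had 19339, 14154 and 16692 in p53R172H/- tumors, 15499, 15067 and 11409 in p53R172H/+ tumors and 13377, 13186 and 12632 in p53-/- tumors. The p53R172H/- tumors lay above the p53-/- tumors, at 0.35 ± 0.13. These 3 were the Sprr genes at an unadjusted p under 0.05, and for Sprr2d and Sprr1a the groups did not overlap, where 9.11% of all genes were higher without overlap.

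Sprr3, the Sprr gene best known from oral and esophageal epithelium, had 13656, 10104 and 9363 in p53R172H/- tumors, 8146, 12839 and 6200.2 in p53R172H/+ tumors and 8674, 12560.4 and 3499.7 in p53-/- tumors. The p53-/- tumors alone spanned almost the whole range, and the mean log2 fold change was 0.59 ± 0.43. The other 5 Sprr genes ran from -0.07 for Sprr1b to 0.35 for Sprr2j-ps, a pseudogene by its symbol.

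**Figure D3:**
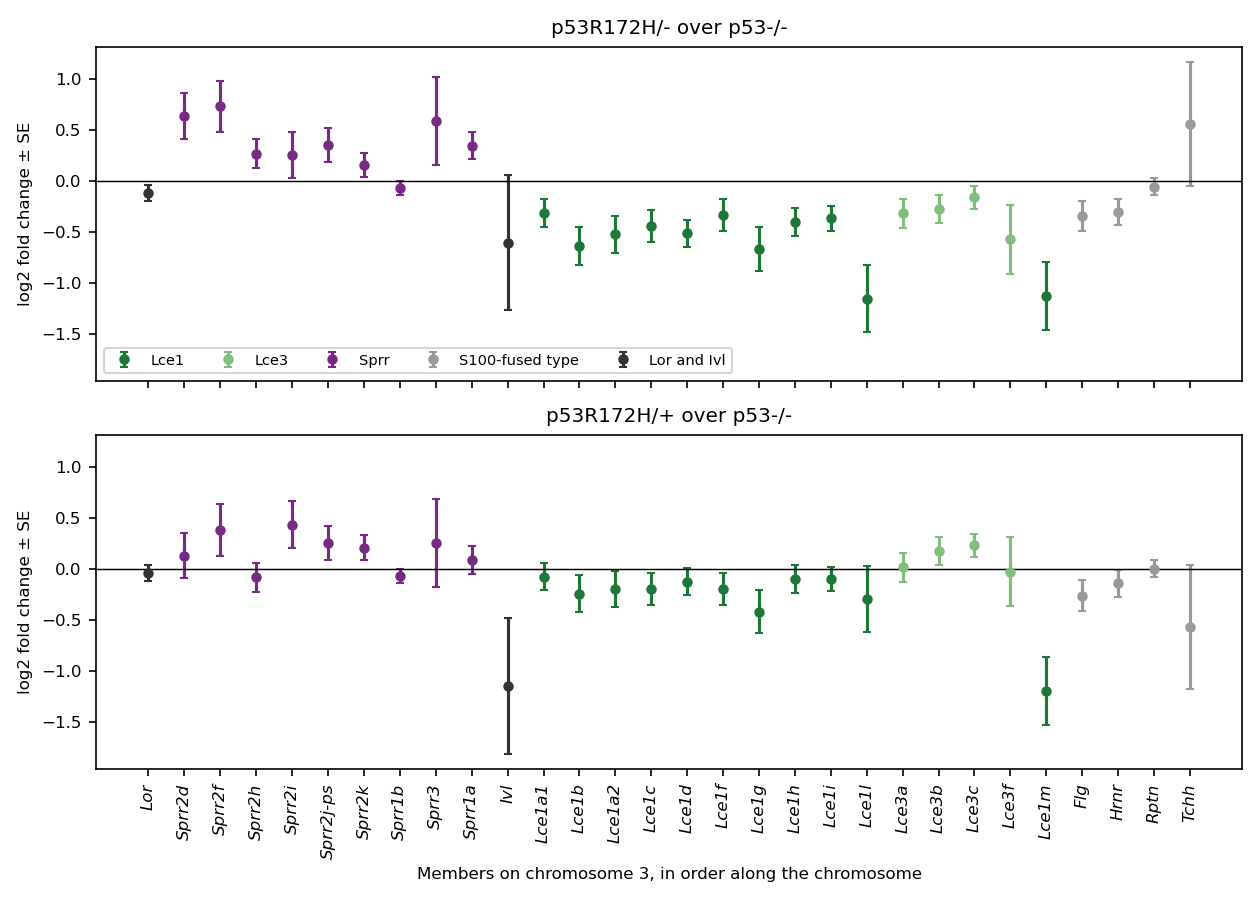
Log2 fold change ± SE (limma) of the 30 genes on chromosome 3, in their order along the chromosome and evenly spaced, for p53R172H/- over p53-/- (top) and p53R172H/+ over p53-/- (bottom). In the top panel the block of Sprr genes is above 0 except Sprr1b and the Lce1 and Lce3 block is below 0, and the panels share their p53-/- tumors.

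A single tumor carried much of the size of these differences. All 11 Lce1 genes were lowest of the 9 tumors in p53R172H/- tumor 1, and 6 of 9 Sprr genes were highest there, while the bright probe sets shared by Sprr2a genes, outside these 9, were low there (values further on). In that tumor the muscle markers were at 6.56 and the hair markers at 7.50 (mean log2 signal), against 10.83 and 10.84 in p53R172H/- tumor 2, 9.79 and 9.93 in tumor 3, and 7.68 to 8.48 and 8.36 to 9.65 in the p53-/- tumors. Both lists were lower still in p53R172H/+ tumor 2, at 6.34 and 7.13. The mean log2 signal of the Lce1 genes was 11.28 in p53R172H/+ tumor 2 and 10.67 in p53R172H/- tumor 1. Fibroblast markers were at 9.96, 10.65 and 10.85 in the p53R172H/- tumors, against 10.30 to 11.29 in the p53-/- tumors. Of the 7 fibroblast markers 5 were lower at an unadjusted p under 0.05 in p53R172H/- against p53-/- tumors, 4 of them without overlap. The other 2 were higher on average, by up to 0.64 (log2). The median log2 fold change of the 7 was -0.67, larger in size than that of the Lce1 genes. The part of these markers in the result was not tested. Without p53R172H/- tumor 1 the Lce1 median was -0.27, with 11 of 11 lower on average and 9 at an unadjusted p under 0.05. The Sprr median was then 0.24, with 8 of 9 higher on average and 0 at an unadjusted p under 0.05. For fits that leave out a tumor, here and below, the share of all genes at an unadjusted p under 0.05 is not given. Whether these counts moved with that share cannot be read from them.

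The Lce3 genes, whose human counterparts are known for their induction in damaged skin, were lower on average in 4 of 4 cases, with a median of -0.30 and 0 at an unadjusted p under 0.05. Without p53R172H/- tumor 1, all 4 stood at an unadjusted p under 0.05 and the median was -0.44. Of the genes of the S100-fused type, filaggrin (Flg), which bundles keratin filaments, had 4306, 5756 and 6427 in p53R172H/- tumors, 5579.9, 5227 and 6463 in p53R172H/+ tumors and 6989, 6141 and 7574 in p53-/- tumors. Its groups overlapped, with p53R172H/- tumor 1 lowest, and p53R172H/- over p53-/- was -0.34 ± 0.15 (SE, limma adjusted p = 0.316). The related hornerin gene Hrnr was at -0.30 ± 0.13 and Rptn at -0.06 ± 0.08. Flg and Hrnr stood at an unadjusted p under 0.05, but without p53R172H/- tumor 1 they did not, at -0.18 for Flg and -0.15 for Hrnr. Tgm1 and Tgm3, the plakins Evpl and Ppl, the proteases and the group of Lor, Ivl, Cdsn and Cnfn had 0 genes at an unadjusted p under 0.05 in this comparison.

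Tumors with the missense allele beside a wild-type allele (p53R172H/+) were set against the same 3 p53-/- tumors, so this comparison and the one above share them. The Lce1 genes were lower on average, 11 of 11, with a median log2 fold change of -0.20, and 1 stood at an unadjusted p under 0.05. Of the Sprr genes 7 of 9 were higher on average, with a median of 0.21 and 0 at an unadjusted p under 0.05. The Lce3 genes had a median of 0.10. Of all 39 genes, 3 stood at an unadjusted p under 0.05, all lower, where all genes tested gave 10.3%, 4.75% higher and 5.6% lower, and 0 passed an adjusted p of 0.05 (limma). The median of the 39 genes was -0.08 and that of all genes -0.03. Groups did not overlap for 9 of the 39, 1 higher and 8 lower, against 15.9% of all genes, 7.08% higher and 8.86% lower.

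The 3 lower genes were Lce1m, Casp14 and Klk7. Lce1m, with the values given above, had a log2 fold change of -1.20 ± 0.33 (SE, limma adjusted p = 0.359). Caspase-14, which takes part in the processing of filaggrin, had 2511, 2954 and 3852 in p53R172H/- tumors, 2655, 2092 and 1934 in p53R172H/+ tumors and 3117, 2785 and 3277 in p53-/- tumors. The p53R172H/+ tumors lay below all p53-/- tumors, at -0.47 ± 0.17, while another, dimmer Casp14 probe set was at -0.12. Klk7, a kallikrein protease that cuts the junctions between cornified cells, had 4355, 5316 and 4821 in p53R172H/- tumors, 4563, 2856 and 4126 in p53R172H/+ tumors and 5194, 4448 and 5829.8 in p53-/- tumors. Its groups overlapped through p53R172H/+ tumor 1, and the log2 fold change was -0.44 ± 0.17. Klk5, the protease that activates Klk7, had 1008, 2113 and 2011 in p53R172H/- tumors, 2465, 787 and 1430.4 in p53R172H/+ tumors and 1729, 1261 and 3129.7 in p53-/- tumors. It varied more within each group than between groups, and p53R172H/+ over p53-/- was -0.43 ± 0.47.

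On the higher side the smallest p belonged to Lce3c, Sprr2i and Tgm1. Lce3c had 12479, 9601 and 9139 in p53R172H/- tumors, 14089.5, 12625 and 13935 in p53R172H/+ tumors and 12134, 10887 and 11598 in p53-/- tumors. The p53R172H/+ tumors lay above the p53-/- tumors without overlap, at 0.23 ± 0.11. Sprr2i had 4796, 5727 and 3759 in p53R172H/- tumors, 3782, 5429 and 7267 in p53R172H/+ tumors and 3589, 3855 and 4377 in p53-/- tumors, and its groups overlapped (0.43 ± 0.23). Transglutaminase 1 (Tgm1), which cross-links the envelope at the membrane, had 3206, 2147 and 2540.5 in p53R172H/- tumors, against 2331, 3369 and 2789.6 in p53R172H/+ and 1889.9, 2136 and 2698 in p53-/- tumors. Its groups overlapped and p53R172H/+ over p53-/- was 0.34 ± 0.19. The count of genes at an unadjusted p under 0.05 moved with single tumors: without p53-/- tumor 1 or without p53R172H/+ tumor 2 it was 1 of 39, without p53-/- tumor 2 it was 5, without p53R172H/+ tumor 1 it was 7, and without p53R172H/- tumor 1, which enters only through the shared spread, it was 9.

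Between the mutant groups, p53R172H/- and p53R172H/+, the labelled difference is the second allele, null or wild type. The Lce3 genes were lower on average in the p53R172H/- tumors, 4 of 4, with a median log2 fold change of -0.42. Of the 39 genes, 9 had an unadjusted p under 0.05. Among them 3 were higher and 6 lower, where all genes tested gave 4.96%, with 2% on the higher and 2.96% on the lower side. None passed an adjusted p of 0.05 (limma, smallest adjusted p of the 39 genes 0.916). The median of the 39 was -0.08 and that of all genes -0.01.

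Lce3c, given above, had the smallest p: all 3 p53R172H/- tumors lay below all 3 p53R172H/+ tumors, with a log2 fold change of -0.39 ± 0.11. Lce3b had 8914, 6468 and 6594 in p53R172H/- tumors, 10220.3, 9945 and 9631 in p53R172H/+ tumors and 8159.5, 10414 and 7951 in p53-/- tumors. These p53R172H/- values were also below all p53R172H/+ values, with a log2 fold change of -0.45 ± 0.14, with p53R172H/- tumor 1 nearest to them, and the p53-/- tumors overlapped with both. Lce3a was at -0.33 ± 0.14 with overlap, and Lce3f at -0.55 ± 0.34 (-0.89 without p53R172H/- tumor 1). Both used probe sets of Lce3b and Lce3c are of the _x_at kind, so the genes cannot be told apart with certainty. The other lower genes at an unadjusted p under 0.05 were Lce1d (-0.39 ± 0.13), Lce1l (-0.86 ± 0.33) and Lce1h (-0.31 ± 0.14). Without p53R172H/- tumor 1 they were at -0.22 for Lce1d, -0.54 for Lce1l and -0.15 for Lce1h, and only Lce1d of these 3 kept an unadjusted p under 0.05.

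The 3 higher genes were Casp14 (0.47 ± 0.17), Sprr2d (0.51 ± 0.22) and Sprr2h. The dimmer Casp14 probe set was at 0.07. Without p53R172H/+ tumor 1, its lowest tumor, Sprr2d was at 0.19 and no longer at an unadjusted p under 0.05. Sprr2h had 6125, 4478 and 5088 in p53R172H/- tumors, 4274, 3581 and 4424 in p53R172H/+ tumors and 4249.9, 3787 and 4992 in p53-/- tumors. All p53R172H/- tumors lay above the p53R172H/+ tumors, at 0.35 ± 0.14, and the p53-/- tumors overlapped with both. Without p53R172H/- tumor 1 Sprr2h was at 0.23 and Sprr2d at 0.44, neither at an unadjusted p under 0.05. Groups did not overlap for 7 of the 39 genes, 2 higher and 5 lower, against 11.9% of all genes tested, 5.27% higher and 6.62% lower. Fibroblast markers, at 9.96, 10.65 and 10.85 in the p53R172H/- tumors, were at 11.13, 10.99 and 10.96 in the p53R172H/+ tumors. Here too 5 of 7 were lower at an unadjusted p under 0.05, and 1 was higher on average (0.16). The median of the 7 was -0.67, and the part of these markers in this result was not tested.

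With both mutant groups averaged and set against p53-/-, 10 of the 39 genes had an unadjusted p under 0.05. Among them 1 was higher and 9 were lower, where all genes tested gave 15.9%, with 6.84% on the higher and 9.09% on the lower side. None passed an adjusted p of 0.05 (limma). The genes with the smallest p were Lce1m (-1.17 ± 0.29, limma adjusted p = 0.194), Lce1g (-0.54 ± 0.19) and Lce1d (-0.32 ± 0.11) on the lower side. On the higher side they were Sprr2f (0.55 ± 0.22), Sprr2j-ps (0.30 ± 0.14) and Sprr2d (0.38 ± 0.19). Sprr2j-ps had 1959.7, 1741 and 1529 in p53R172H/- tumors, 1322, 1612 and 1991 in p53R172H/+ tumors and 1529.5, 1179 and 1392 in p53-/- tumors, with overlap. All 6 mutant tumors lay below all 3 p53-/- tumors for 5 of 11 Lce1 genes (Lce1a2, Lce1b, Lce1c, Lce1d and Lce1m) and for no other of the 39, where groups did not overlap for 7.27% of all genes, 3.34% higher and 3.94% lower. The Lce1 count at an unadjusted p under 0.05 was 8 of 11, and it was 4 without p53-/- tumor 1 or p53R172H/+ tumor 2, 2 without p53-/- tumor 3 and 5 without p53R172H/+ tumor 3. The count over the 39 genes was 6, 4 and 3 without p53-/- tumor 1, p53R172H/+ tumor 2 and p53-/- tumor 3 in turn, and 16 without p53R172H/- tumor 3.

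The Lce1 and Sprr families were set against each other within each tumor, as the mean log2 signal of the 9 Sprr genes minus that of the 11 Lce1 genes. The size of this number depends on the probes, so only its differences between tumors have a meaning. It was 2.20, 1.22 and 1.19 in the p53R172H/- tumors, 0.83, 1.32 and 0.99 in the p53R172H/+ tumors and 0.64, 0.72 and 0.39 in the p53-/- tumors. All 6 tumors with the mutation lay above the 3 p53-/- tumors. The Lce1 mean alone also separated them, at 10.67 to 11.34 in p53R172H/-, 11.28 to 11.49 in p53R172H/+ and 11.62 to 11.75 in p53-/- tumors. The Sprr mean did not, at 12.52 to 12.86 in p53R172H/-, 12.29 to 12.6 in p53R172H/+ and 12.14 to 12.36 in p53-/- tumors. The families were picked for this contrast after their values were seen, so it is a description with no test.

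Some probe sets that name several Sprr2a genes lie outside the 39 genes, since their signal cannot be given to 1 gene. The probe set shared by Sprr2a1, Sprr2a2 and Sprr2a3 had 2706, 11824 and 14739 signal units in p53R172H/- tumors, 2033, 1941 and 11605 in p53R172H/+ tumors and 11024, 9915 and 6954 in p53-/- tumors. The one shared by Sprr2a1 and Sprr2a2 had 1615, 8277 and 10419 in p53R172H/- tumors, 1607, 1374 and 7597 in p53R172H/+ tumors and 7612, 5948 and 4525 in p53-/- tumors. Both were far lower in p53R172H/- tumor 1 and p53R172H/+ tumors 1 and 2 than in the other 6 tumors, which included all 3 p53-/- tumors. Another, dim Sprr2a1 and Sprr2a2 probe set was also lowest in these 3 tumors, at 16.02, 19.68 and 20.15 signal units, against 31.0 to 76.3 in the others, values around the floor. Sprr2d, by contrast, had its highest value in p53R172H/- tumor 1 and its lowest in p53R172H/+ tumor 1. The Sprr2a probe sets thus split the mutant groups, with a 7.59-fold range over the 9 tumors for both bright sets, larger than that of any of the 9 Sprr genes (at most 3.90-fold).

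**Figure D4:**
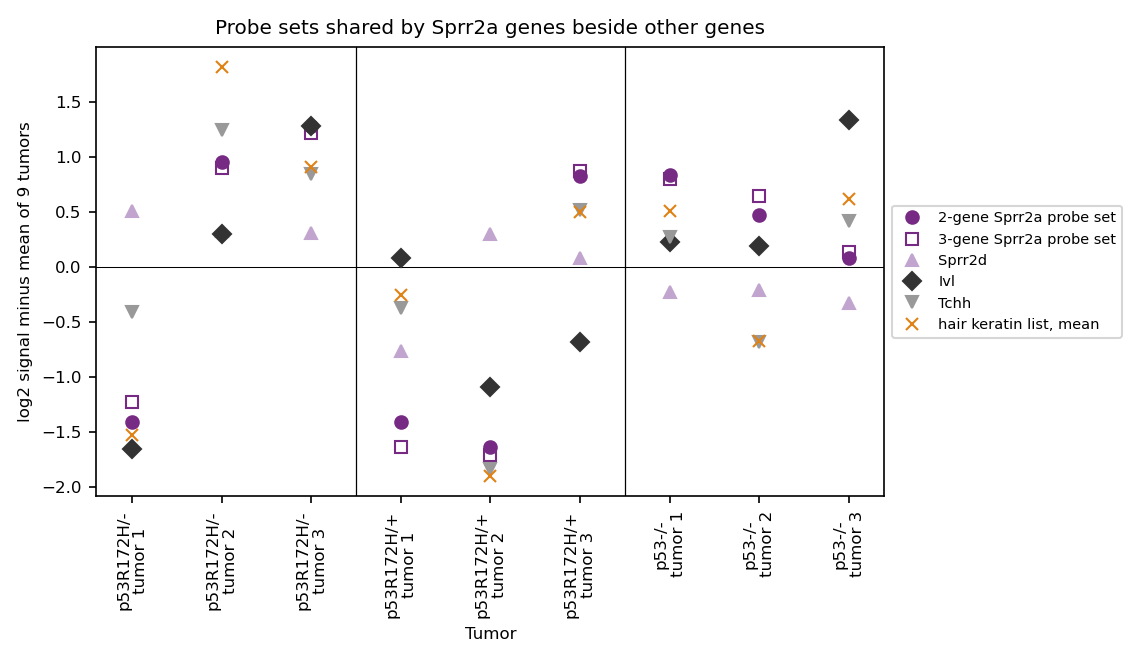
Log2 signal in each tumor, as the deviation from each item's own mean over the 9 tumors, for both bright probe sets shared by Sprr2a genes, for Sprr2d, Ivl and Tchh, and for the mean of the 11 measured hair markers. The Sprr2a probe sets are low in p53R172H/- tumor 1 and p53R172H/+ tumors 1 and 2, Ivl and the hair markers are low in p53R172H/- tumor 1 and p53R172H/+ tumor 2, and Sprr2d does not follow them.

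Tchh and Ivl, the genes with the widest range, varied widely within groups. Trichohyalin (Tchh), a protein of the hair root sheath and of the papillae of the tongue, had 1194, 3754 and 2844 in p53R172H/- tumors, 1223, 444 and 2275 in p53R172H/+ tumors and 1918, 985 and 2122 in p53-/- tumors. It was lowest in p53R172H/+ tumor 2 and highest in p53R172H/- tumor 2, the same tumors in which the hair markers were lowest (7.13) and highest (10.84), and their part in this range was not tested. Involucrin (Ivl), the scaffold protein laid down first, had 144, 556 and 1098 in p53R172H/- tumors, 477, 212 and 281 in p53R172H/+ tumors and 529, 513 and 1138 in p53-/- tumors. The p53R172H/+ tumors all lay below the p53-/- tumors, with a log2 fold change of -1.15 ± 0.66 (SE, limma adjusted p = 0.548), and the p53R172H/- tumors spanned both groups (-0.61 ± 0.66). A dimmer Ivl probe set was lower on average too, at -0.14 in p53R172H/- and -0.62 in p53R172H/+ tumors against p53-/-. The hair markers were at 7.50 in p53R172H/- tumor 1 and 7.13 in p53R172H/+ tumor 2, where Ivl had its lowest values. In p53R172H/+ tumor 3, with the next lowest Ivl value (281), they were at 9.52. Where they were highest, in p53R172H/- tumor 2 (10.84), Ivl was at 556. The part of the hair markers was not tested.

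Corneodesmosin, cornifelin and the plakins had 0 genes at an unadjusted p under 0.05 in any comparison. Corneodesmosin (Cdsn), the adhesive of the junctions between cornified cells, had 5369, 10808 and 6728 in p53R172H/- tumors, 6048, 10889 and 4790.1 in p53R172H/+ tumors and 9586, 6720.1 and 5798 in p53-/- tumors. Each group held both low and high tumors, and the log2 fold changes against p53-/- were 0.02 ± 0.34 and -0.08 ± 0.34 for p53R172H/- and p53R172H/+. Cnfn, an envelope component, had 13053, 10787 and 12454 in p53R172H/- tumors, against 11645, 12221 and 10439 in p53R172H/+ and 11551, 10781 and 11373 in p53-/- tumors, with full overlap. Envoplakin (Evpl) had 3430.2, 3346 and 3901 in p53R172H/- tumors, 3331, 4025 and 3943 in p53R172H/+ tumors and 3932, 4919 and 3856 in p53-/- tumors. Its partner Ppl had 4131, 4511 and 4824 in p53R172H/- tumors, 4464, 5306 and 4457 in p53R172H/+ tumors and 4699, 4981 and 4539 in p53-/- tumors. Against p53-/-, the log2 fold changes of Evpl were -0.25 ± 0.12 for p53R172H/- and -0.17 ± 0.12 for p53R172H/+, those of Ppl were -0.08 ± 0.09 for p53R172H/- and -0.0031 ± 0.09 for p53R172H/+, and the groups of both genes overlapped.

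Transglutaminase 3 (Tgm3), which cross-links envelope and hair proteins, had 5616, 8252 and 6967 in p53R172H/- tumors, 5298, 7688 and 10124 in p53R172H/+ tumors and 7472, 9243 and 7883 in p53-/- tumors on its brightest probe set. The log2 fold changes there were -0.25 ± 0.22 for p53R172H/- and -0.13 ± 0.22 for p53R172H/+ against p53-/-. Another Tgm3 probe set had 2489, 3429 and 3412 in p53R172H/- tumors, 2122, 4169 and 3240.3 in p53R172H/+ tumors and 2296, 1439 and 1619.7 in p53-/- tumors. It was 0.81 higher (log2) on average in each mutant group, so the probe sets of Tgm3 disagree in direction and no direction can be given for the gene. Of the 39 genes 7 had more than 1 probe set of their own: Tgm3, Ivl, Casp14, Lce1a1, Lce1f, Lor and Rptn. On the dimmer sets, p53R172H/- over p53-/- was at -0.36 for Lce1a1, -0.89 for Lce1f and -0.05 for Casp14. The other sets of Lor were at -0.13 and 0.01, and those of Rptn, both dim, at -0.16 and 0.24.

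Correlations over the 9 tumors were computed for 7 pairs of genes that act together. Lor and Flg had a Pearson's r of 0.838 (exact permutation p = 0.00408, adjusted over the 7 pairs 0.0286) and a Spearman's rho of 0.767 (permutation p = 0.0214, adjusted 0.129). Without the 2 tumors farthest from the median of Lor r was 0.613, so the relation rests partly on p53R172H/- tumor 1, where both genes were lowest. With each value taken as its deviation from the group mean r was 0.824, over all 9 tumors and so with p53R172H/- tumor 1 kept in. For Ivl and Lor r was 0.687 (exact permutation p = 0.0191, adjusted 0.0670) and for Evpl and Ppl 0.655 (exact permutation p = 0.0552, adjusted 0.129). The other 4 pairs had r of -0.54 (Ivl and Tgm1), -0.16 (Tgm1 and Tgm3), 0.05 (Sprr1b and Ivl) and 0.25 (Casp14 and Lor), with adjusted exact permutation p of 0.240 or more.

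Genes that control or accompany cornification were read from fixed lists. Of 16 measured regulators, 3 were higher and 1 lower at an unadjusted p under 0.05 in p53R172H/- against p53-/- tumors (limma), which is 25% where all genes tested gave 15.6%, and 0 passed after adjustment. Ovol1, a transcription factor of epithelial differentiation, was at 0.34 ± 0.12 (log2 fold change ± SE), and Prdm1, a transcriptional repressor, at 0.26 ± 0.09. Pparg, a lipid-sensing nuclear receptor, was at -0.53 ± 0.19 (SE). In p53R172H/+ against p53-/- tumors 3 regulators were higher and 1 lower, 25% of the list, where all genes tested gave 10.3%, and Ovol1 was at 0.54 ± 0.12 (SE) and Grhl3, the Grainyhead-like factor of barrier formation, at 0.36 ± 0.13 (SE). Ovol1 had 1802, 1497 and 1792 signal units in p53R172H/- tumors, 2097, 1953 and 1789 in p53R172H/+ tumors and 1438, 1139 and 1447 in p53-/- tumors. All 6 mutant tumors lay above all p53-/- tumors.

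Of 27 genes of the granular layer and the lipid barrier, 1 was higher and 5 were lower at an unadjusted p under 0.05 in p53R172H/- against p53-/- tumors, with a median of -0.07. That is 22.2% of the list, where all genes tested gave 15.6%. Among them were Aloxe3 (-0.49 ± 0.14 SE) and Alox12b (-0.43 ± 0.12 SE), lipoxygenases of the lipid barrier, and Prss8, a membrane-bound serine protease (-0.32 ± 0.10 SE). In p53R172H/+ against p53-/- tumors 1 was higher and 1 lower, 7.41% of the list, below the 10.3% of all genes tested. These were Dsc1, a desmosomal cadherin (0.35 ± 0.14 SE), and St14, the protease matriptase (-0.29 ± 0.10 SE). The mean log2 signal of the 7 basal and stress keratins stayed between 13.48 and 13.66 in all tumors. Among them Krt15 alone ran from 1083 in p53R172H/- tumor 1 to 3206 signal units in p53R172H/- tumor 2. The list had 0 genes at an unadjusted p under 0.05 in p53R172H/- against p53-/- tumors. The 6 keratins of the spinous layer ran from 10.62 to 12.81, also with 0.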

How the data were processed

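Total RNA of 9 mouse oral tumors was labelled as biotinylated cRNA and hybridised to 1 Affymetrix array each. Each deposited value is the linear intensity of a probe set, computed by the authors with MAS5, per the submitters' processing notes. The MAS5 version and scaling are not stated there. Of 45101 probe sets 64 are controls, 34945 had 1 gene symbol, 932 several and 9160 none. Only those with 1 symbol were used, except where shared Sprr2a probe sets are described. Intensities under the 20th percentile (52.6) were set to it before taking log2. Each gene was read on its brightest probe set, and genes under a mean of 113 were left out. The 3 group means were estimated from the 9 arrays in 1 linear model in limma 3.58.1 under R 4.3.3, whose eBayes step used a variance trend, and two-sided p-values were Benjamini-Hochberg adjusted over 12167 genes at a threshold of 0.05. Correlations used exact permutation tests over all orderings, coded in Python 3.11.15, with ranks and the adjustment from scipy 1.17.1. Promoters were aligned with Biopython 1.88. The code of the fit was also run on simulated data in which genes varied independently, unlike the Lce1 genes here. No result above rests on that run.

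The members and lists were chosen with earlier results of these data known. Genes given with all values are the best-known envelope genes, in each comparison the 3 members with the smallest p in each direction, and the 5 with the widest range. The 3 promoters of each family, Ovol1's per-tumor values and the Sprr minus Lce1 contrast were chosen after values were seen. Values of the targeted gene are not given here. Alternatives were quantile normalization, a pseudocount of 16 in place of the floor, no filter, the mean of a gene's probe sets, no variance trend, array weights, only the compared groups, tumor numbers as a block, and leaving out each tumor.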

Additional observations from a re-analysis of the deposited data

How the results depend on the processing

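No member had an adjusted p under 0.05 (limma) in any of the 17 alternative settings, and over all genes tested 1 passed in 1 setting (both mutant groups over p53-/- without p53R172H/+ tumor 3, smallest adjusted p 0.0374). With each tumor left out in turn, the members' median in p53R172H/- over p53-/- ran from -0.27 to -0.11, the Lce1 median from -0.62 to -0.27, the Sprr median from 0.24 to 0.42 and the count of higher Sprr genes from 0 to 4 (1 without p53-/- tumor 3). The count of members at an unadjusted p under 0.05 ran from 1 to 9 in p53R172H/+ over p53-/-, from 6 to 12 in p53R172H/- over p53R172H/+ and from 3 to 16 in both groups over p53-/-, where the Lce1 count ran from 2 to 10. The Lce3 median in p53R172H/- over p53R172H/+ ran from -0.57 to -0.32. With array weights the Lce1 median was -0.39 and the Sprr median 0.20 in p53R172H/- over p53-/-, the Lce3 median -0.53 and the members' median 0.014, of the opposite sign, in p53R172H/- over p53R172H/+, and the count in p53R172H/+ over p53-/- was 7. That count was 9 with only the compared groups. Without the filter 4 members stood at an unadjusted p under 0.05 in p53R172H/- over p53R172H/+, and 4, the Lce1 count also being 4, in both groups over p53-/-. Without the variance trend 6 members, 5 of them Lce1 genes, did so in both groups over p53-/-. The causes were not tested. In these settings the share of all genes at an unadjusted p under 0.05 is not given, so the counts have no background beside them. Among the pairs, the r of Sprr1b and Ivl was -0.023 after quantile normalization and -0.40 to 0.40 with a tumor left out, and that of Tgm1 and Tgm3 was 0.26 on the mean of probe sets and -0.32 to 0.10 with a tumor left out. The r of Lor and Flg was 0.65 (exact permutation p = 0.0791) without p53R172H/- tumor 1 and 0.50 on the mean of probe sets, and its adjusted p was over 0.05 there and without p53R172H/- tumor 2 (0.0654) or p53-/- tumor 3 (0.0748). The r of Ivl and Lor was 0.40 without p53R172H/- tumor 1 and 0.15 on the mean of probe sets. Its adjusted exact permutation p was under 0.05 only without p53R172H/+ tumor 1 (0.0486).

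Correlations of deviations from the group means ran from -0.50 to 0.24 between same-numbered tumors (median 0.09). Between differently numbered tumors they ran from -0.47 to 0.52 (median 0.007). With 3 tumors in each group, these values cannot settle whether the numbers pair tumors. With the number as a replicate block the count in p53R172H/+ over p53-/- was 5, against 3 without it, and the other counts stayed within 1.5 times.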
